A study of Gallus gallus with 10 samples.

Results

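The expressed solute carriers of the hen's isthmus are described here, gene by gene and by the kind of substrate they carry. Of 278 rows whose symbol begins with SLC and a number, 187 were taken, and they were selected on their level, a mean of at least 1 FPKM (a read level divided by gene length and by sequencing depth) over the 10 hens. A further 87 rows lay under that limit, 18 of them without a read in any hen, and 4 (SLC4A1, SLC4A4, SLC4A7 and SLC26A9) were left out by name. Of the 187 genes, 183 were counted as carriers by their symbol, in 45 families. The other 4 only carry the name of a carrier: SLC9A3R1 and SLC9A3R2 are adaptor proteins that anchor a sodium/proton exchanger, SLC4A1AP is an adaptor of an anion exchanger, and SLC7A6OS lies opposite an amino acid transporter gene. Among the members just above the limit were SLC45A2 at 1.03 FPKM and SLC4A9 at 1.31 FPKM, and the 3 rows nearest below it were SLC1A2 at 0.941 FPKM, SLC16A10 at 0.715 FPKM and SLC1A3 at 0.699 FPKM. Since the level chose the members, the levels below are a description and were not tested.

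Solute carriers are membrane proteins that move ions, metals, nutrients and metabolites along gradients, as exchangers, cotransporters or facilitators, without hydrolysing ATP themselves. Their substrate largely follows the family number, and so does their place: the SLC25 family sits almost wholly in the inner mitochondrial membrane, SLC35 in the Golgi apparatus and the endoplasmic reticulum, and most other families in the plasma membrane or in vesicles. In the white isthmus, tubular gland cells secrete the proteins of the shell membrane fibers, which lysyl oxidases, enzymes that need copper, crosslink while the egg passes.

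The libraries were made from white isthmus of dwarf white hens late in lay, 5 with translucent and 5 with opaque eggshells. The hens of both groups were of one selected line, were labelled WT and differed by the grade of their eggs. According to the study's methods, the translucent group was chosen among hens with thinner shell membranes and the opaque group among hens with normal ones, and the tissue was taken in the hours after oviposition. The study also reports that membrane thickness did not differ significantly between the sampled groups at that time. Each hen gave 1 library from a whole piece of tissue, so that fewer cells of a type and less RNA per cell cannot be told apart.

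The deposited read totals ran from 11601225 to 19014779 per hen. A floor of 3 reads was equal to 0.160 to 0.297 CPM (counts divided by the depth of the library, scaled by TMM, edgeR's correction for library composition). EPCAM, an epithelial adhesion protein, was at 942 FPKM and LOXL2, a lysyl oxidase, at 2786 FPKM, which fitted the tissue label. Of the 3 markers listed for isthmus secretion, 2 were found by symbol, LOXL2 and QSOX1, and COL10A1 was not. The study names COL10A1 among the genes it detected, so the failed symbol match does not show that its transcript was absent. The oviduct segment was not tested further. Translucent-1 and Opaque-5 stood apart from the other hens. On the first principal component of the members, which held 50.5% of their variance (39.8% for all genes), they scored -7.18 and -10.1, against -2.09 to 4.88 for the other 8 hens. The secretory marker LOXL2 was at 1215 and 1279 FPKM in these hens and at 1889 to 4877 FPKM in the others. QSOX1, a further secretory marker, did not share this: it was at 335 and 360 FPKM against 256 to 388 FPKM. In CPM, QSOX1 was highest in these hens, at 1075 and 1088 CPM. Fibroblast markers summed to 108 and 98.7 FPKM against 128 to 269 FPKM, and epithelial markers to 1825 and 2041 FPKM against 1130 to 1928 FPKM. These sums were not scaled by TMM. In CPM, the fibroblast marker DCN was lowest in Translucent-1 at 157 CPM, but COL3A1 was at 102 CPM there and at 86.8 CPM in Translucent-3. The most abundant row of the table took 20.5% and 15.6% of all FPKM in them and 10.6% to 13.6% in the others. The results are therefore also given without these hens where a count rests on them.

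The carriers spanned a ratio of 642 between the highest and the lowest mean. Their median was 11.6 FPKM, with 8 members at 100 FPKM or more, 96 from 10 to 100 FPKM and 83 from 1 to 10 FPKM. The level was concentrated in few genes, since the 3 highest held 29.98% and the 10 highest 51.3% of the summed FPKM of all members, which was 6056 FPKM. Mitochondrial carriers held 24.8% of that sum, carriers of metals 22.1% and carriers of inorganic ions 19.9%. These 3 classes were followed by carriers of nucleotide sugars and other substrates of the Golgi and endoplasmic reticulum with 8.03%, carboxylates and organic ions with 7.54%, amino acids and peptides with 6.17%, vitamins, nucleosides, choline and heme with 5.13%, and sugars and polyols with 3.43%. In the plot of level by class, most classes have a few members far above the rest.

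**Figure D1:**
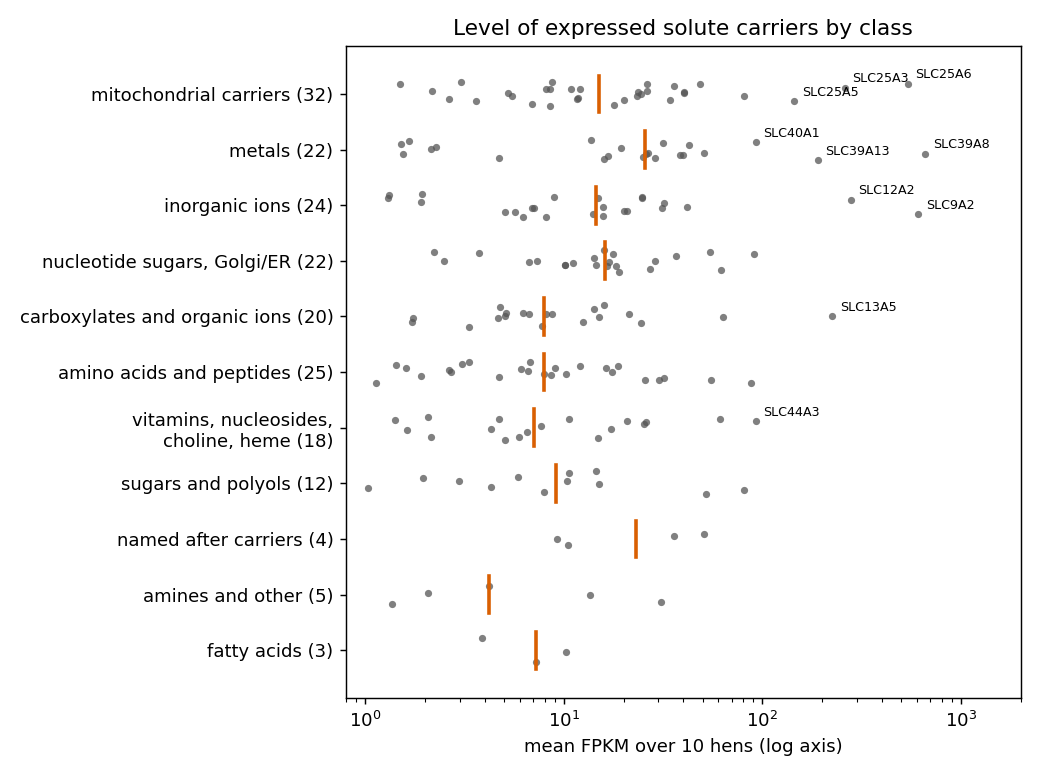
Mean FPKM over 10 hens of each of the 187 members (points, log axis), by carrier class with the number of members, and the median of the class (orange bar). The 10 members with the highest level are named, from SLC39A8 at 664 FPKM to SLC44A3 at 92.8 FPKM, and the class medians lie between 4.20 and 25.6 FPKM.

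A carrier of zinc came first among single genes. SLC39A8, an importer of zinc and manganese, had the highest level of all members at 664 FPKM and stood at place 85 among the 17617 rows of the table. It held 72.0% of the FPKM of the 8 SLC39 members, and SLC39A13, a zinc transporter of the Golgi and vesicles, followed with 191 FPKM. SLC40A1, also named ferroportin, the exporter of iron, was at 93.2 FPKM, and SLC31A1, the copper importer, at 50.9 FPKM. The SLC30 family, which moves zinc out of the cytosol into the secretory pathway and vesicles, was more even: its 6 members lay between 13.8 and 38.3 FPKM and the highest, SLC30A5, held 27.5% of their sum. Of the 22 metal carriers, 16 were at 10 FPKM or more, and their median of 25.6 FPKM was the highest among the 8 classes with more than 5 members.

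SLC39A8 was measured at 867, 1197, 1120, 1071 and 1177 CPM in Translucent-1 to Translucent-5 and at 1080, 1085, 1054, 1044 and 710 CPM in Opaque-1 to Opaque-5. The lowest values were those of Translucent-1 and Opaque-5, while the other 8 hens lay between 1044 and 1197 CPM. SLC39A13 was at 548, 593, 487, 518 and 588 CPM in the translucent group and at 451, 575, 406, 527 and 418 CPM in the opaque group. The groups overlapped for both zinc carriers. SLC31A1 ran from 176 to 223 CPM in the translucent group (median 201 CPM) and from 167 to 237 CPM in the opaque group (median 184 CPM), with a coefficient of variation (CV, the SD of the CPM over all 10 hens as a percent of their mean) of 11.1%.

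Among carriers of inorganic ions, a pair of genes held most of the level. SLC9A2, an exchanger that puts protons out of the cell for sodium, was at 612 FPKM and held 87.0% of the FPKM of the 7 SLC9 members. SLC12A2, the cotransporter that brings sodium, potassium and chloride into secretory epithelial cells, was at 281 FPKM and held 81.8% of that of 3 SLC12 members. SLC12A7, a potassium-chloride cotransporter that works in the outward direction, followed at 41.7 FPKM. With these, the 3 highest members made up 77.7% of the class of 24, whose median was 14.5 FPKM.

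SLC9A2 was at 2763, 2812, 3147, 2717 and 2460 CPM in the translucent hens and at 2656, 2405, 2246, 3225 and 3029 CPM in the opaque hens. SLC12A2 was at 932, 1067, 1376, 981 and 951 CPM in the translucent hens and at 1099, 1235, 1226, 968 and 627 CPM in the opaque hens. The translucent hens lay inside the opaque range for SLC9A2, and Opaque-5 had the lowest SLC12A2 of all hens. SLC34A2, a sodium-phosphate cotransporter of epithelial surfaces named here after its values were seen, was at 39.9 CPM in Translucent-1, at 29.5 CPM in Opaque-5 and between 65.3 and 107 CPM in the other 8 hens.

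The mitochondrial class was the largest, with 32 members of the SLC25 family. Its leading members were carriers of energy metabolism. SLC25A6, which exchanges ADP for ATP across the inner membrane, was at 539 FPKM and made up 36% of the family. SLC25A3, which imports the phosphate needed for ATP synthesis, was at 262 FPKM, and SLC25A5, a further ADP/ATP exchanger, at 145 FPKM. SLC25A13, a carrier of aspartate and glutamate that takes part in the malate-aspartate shuttle, was at 80.5 FPKM. The median of the class was 14.96 FPKM.

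SLC25A6 was at 1474, 1452, 1764, 1636 and 1510 CPM in the translucent group and at 1570, 1847, 1475, 2032 and 1859 CPM in the opaque group, and the groups overlapped. SLC25A3 was at 492, 371, 358, 337 and 360 CPM in the translucent group and at 302, 286, 312, 368 and 705 CPM in the opaque group. Translucent-1 and Opaque-5 were the highest hens for SLC25A3, and both lay beyond the range of 286 to 371 CPM of the other 8. The same hens were highest for SLC25A5, with 222 and 249 CPM against 127 to 175 CPM, and for SLC25A4, the ADP/ATP exchanger that prevails in muscle of mammals, with 189 and 138 CPM against 51.3 to 83.4 CPM. They were also highest for SLC25A22, a glutamate carrier, with 104 and 128 CPM against 32.8 to 63.6 CPM. SLC25A4 and SLC25A22 were added after their values were seen. Smooth muscle markers summed to 311 FPKM in Translucent-1 and to 149 FPKM in Opaque-5, against 81.1 to 226 FPKM in the other hens, and their part in the SLC25A4 values was not tested.

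SLC13A5, a sodium-coupled importer of citrate, led the carriers of carboxylates and organic ions with 226 FPKM, which was 91.4% of the FPKM of the 2 SLC13 members. It was at 610, 610, 657, 470 and 425 CPM in the translucent group and at 441, 477, 469, 526 and 590 CPM in the opaque group. In FPKM the SD was 38.4 around a mean of 237 in the translucent group and 6.60 around a mean of 214 in the opaque group, and the groups overlapped. The small SD of the opaque group held only in FPKM as deposited, since its hens ran from 441 to 590 CPM. SLC17A5, which carries sialic acid out of lysosomes, followed at 63.4 FPKM and SLC10A7, a member of the bile acid carrier family placed in the Golgi apparatus, at 24.6 FPKM. The 8 monocarboxylate carriers of the SLC16 family were lower, and the highest, SLC16A5, held 21.4% of their sum at 15 FPKM.

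The carriers of nucleotide sugars and other substrates of the Golgi and endoplasmic reticulum were the most even of the 8 largest classes. Their 3 highest of 22 members held 42.5% of the sum. SLC35C1, which brings GDP-fucose into the Golgi, was at 90.3 FPKM, SLC35B1, which exchanges ATP and ADP across the membrane of the endoplasmic reticulum, at 61.8 FPKM, and SLC35B4, a carrier of UDP-xylose and UDP-N-acetylglucosamine, at 54.8 FPKM. SLC35B3, which carries the sulfate donor PAPS, was at 10.2 FPKM and had the smallest CV of all members, 6.18%, with hens between 35.7 and 43.8 CPM. SLC35B1 was at 175 CPM in Translucent-1 and 176 CPM in Opaque-5 and between 82.9 and 121 CPM in the other 8 hens. SLC35C1 ran from 169 to 260 CPM in the translucent group (median 225 CPM) and from 154 to 215 CPM in the opaque group (median 189 CPM), so the groups overlapped.

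Amino acids were carried by 25 members with a median of 7.99 FPKM. SLC38A2, a sodium-coupled importer of small neutral amino acids, was at 87.9 FPKM, SLC7A5, the exchanger of large neutral amino acids, at 55.1 FPKM, and SLC38A10, a less studied member of the same family as SLC38A2, at 32.1 FPKM. SLC38A2 was at 318, 421, 579, 454 and 408 CPM in the translucent group and at 392, 476, 483, 577 and 310 CPM in the opaque group. Its lowest hens were Opaque-5 and Translucent-1, and the group ranges nearly coincided.

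Of the carriers of vitamins, nucleosides, choline and heme, SLC44A3, a choline transporter-like protein, was at 92.8 FPKM, SLC28A3, a sodium-coupled importer of nucleosides, at 61.4 FPKM, and SLC46A1, the proton-coupled importer of folate, at 25.9 FPKM. SLC28A3 was at 145, 282, 158, 198 and 262 CPM in the translucent hens and at 279, 297, 219, 159 and 134 CPM in the opaque hens. Its lowest hen was Opaque-5, followed by Translucent-1. SLC48A1, a heme transporter of endosomes and lysosomes, had the second smallest CV, 6.71%.

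Of 12 carriers of sugars and polyols, SLC2A1, the widespread facilitator of glucose uptake, was at 81.3 FPKM, SLC2A14, a close relative of the glucose transporter SLC2A3, at 51.8 FPKM and SLC45A3, a proton-coupled sugar transporter, at 15.1 FPKM. SLC2A1 was at 286, 220, 329, 183 and 199 CPM in the translucent group and at 200, 316, 259, 387 and 183 CPM in the opaque group. The groups overlapped, and Opaque-4 was the highest hen. The class of urea, vesicular amines and other substrates had 5 members. It was led by SLC66A2, a PQ-loop protein, at 30.7 FPKM, SLC18B1, a vesicular carrier of polyamines, at 13.5 FPKM and SLC66A3, a further PQ-loop protein, at 4.20 FPKM. The 3 members of the fatty acid family SLC27 summed to 21.4 FPKM, and the 4 genes that only bear a carrier's name to 106 FPKM.

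Summed over all members and divided by the TMM factor of the hen, the carriers lay between 5730 and 6474 scaled FPKM in the 10 hens, a ratio of 1.13. The sum was 6103 ± 246 in the translucent group and 5981 ± 235 in the opaque group (mean ± SD, n = 5 each), so the difference was smaller than the spread between hens. Before this scaling, the sums were 5163 FPKM in Translucent-1, 5256 FPKM in Opaque-5 and 6038 to 6586 FPKM in the other 8 hens. The total was therefore even across hens only once the composition of the library had been taken into account.

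The classes varied more than their total. Mitochondrial carriers were highest in Opaque-5 at 1918 scaled FPKM, next highest in Translucent-1 at 1620 and lowest in Opaque-1 at 1337. Metal carriers took the opposite order at the low end, with 1090 scaled FPKM in Opaque-5 and 1249 in Translucent-1, against 1266 to 1472 in the other hens. Amino acid carriers were also lowest in these hens, at 303 scaled FPKM in Opaque-5 and 328 in Translucent-1, and ran up to 458 in Opaque-2. Sugar carriers were lowest in Opaque-5 at 146 and highest in Opaque-2 at 247 scaled FPKM, whereas nucleotide sugar carriers were highest in Translucent-1 at 546. Both places of Translucent-1 at the upper end depended on the scaling: in FPKM as deposited it was the lowest hen for mitochondrial carriers, at 1385 FPKM, and at 467 FPKM for nucleotide sugar carriers, where Translucent-5 was highest at 524 FPKM. The largest ratio between hens, 1.95, was that of the fatty acid carriers, from 13.4 in Translucent-1 and 14.8 in Opaque-5 to 26.2 scaled FPKM in Translucent-5.

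**Figure D2:**
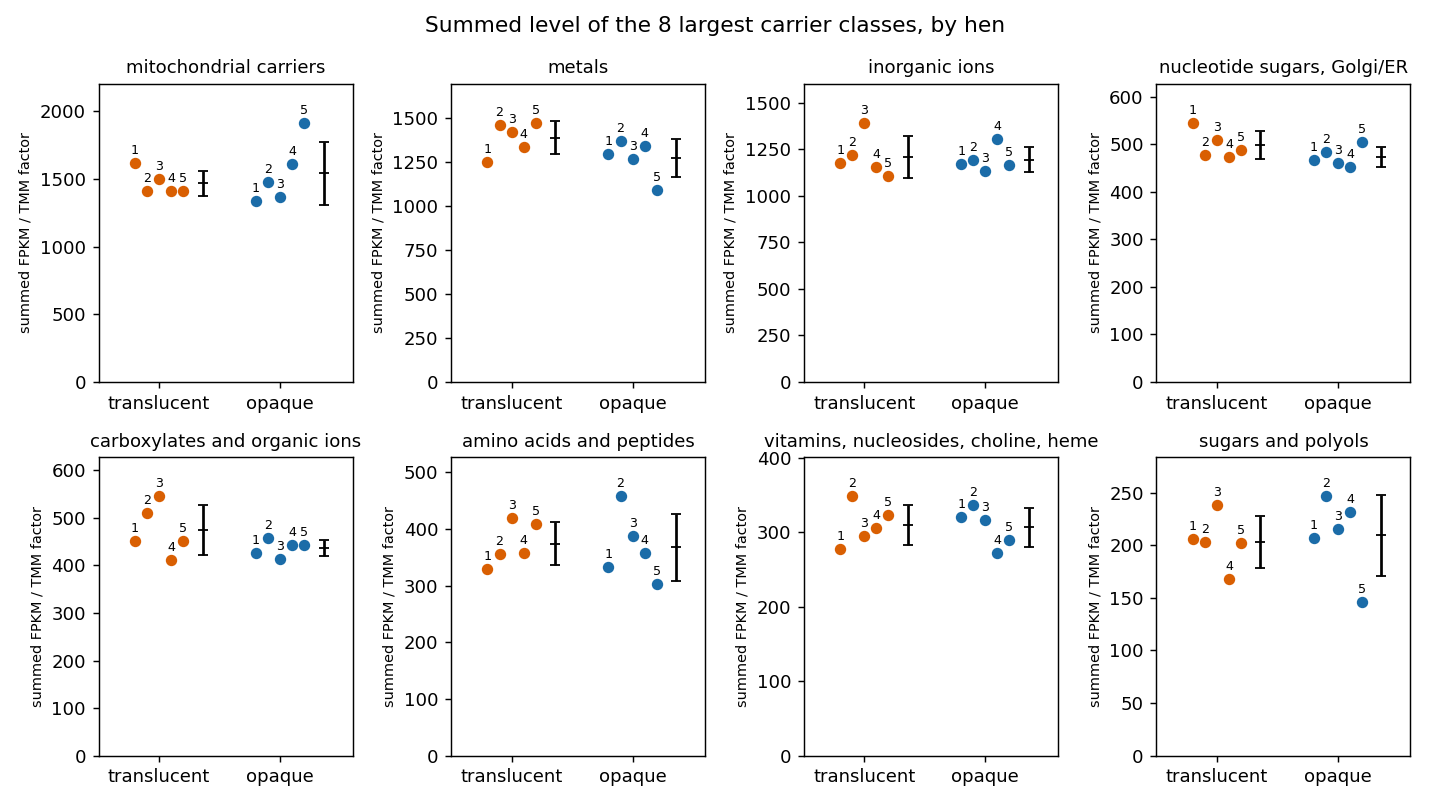
Summed FPKM of the members of the 8 largest carrier classes, divided by the TMM factor of the hen (y axis from 0), for each translucent (orange) and opaque (blue) hen, numbered by replicate, with mean and SD of the group (n = 5). The ranges of the groups overlap in each of these classes (for metals 1386 ± 93.2 in the translucent and 1272 ± 109 in the opaque group), and Opaque-5 is highest for mitochondrial carriers at 1918 and lowest for metals at 1090.

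The translucent group was then compared with the opaque group to ask whether carrier transcripts differed with eggshell translucency, by the quasi-likelihood test of edgeR, with p-values adjusted by Benjamini-Hochberg over the 12858 genes that passed the low-count filter. All 187 members passed it. No member was called at an adjusted p under 0.05 with an absolute log2 fold change over 1 (0 of 187, against a background of 0% of the genes tested), and DESeq2 and limma called 0 members as well. The smallest adjusted p of a member was 1 by edgeR, and the smallest of any gene was 0.655. At an unadjusted p under 0.05 there were 3 members, which is 1.6% against a background of 2.19%. Of these, 2 were higher in the translucent group (1.07%, background 1.07%) and 1 was lower (0.535%, background 1.12%). The groups did not overlap in 1 member (0.535%, background 0.443%). The shares of the members were at or near those of all genes, or below them. The study itself reports differentially expressed genes by DESeq2. Its methods give the threshold once as a false discovery rate and once as a p-value. Its summary of the sequencing lists fewer libraries than were used here. The reason for the different outcome was not tested.

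The members' log2 fold changes (translucent against opaque) were centred on 0, with a median of 0.00 for the members and -0.01 for all genes tested, 95 positive and 92 negative. The median absolute log2 fold change was 0.13 for the members and 0.12 for all genes, while the median standard error of a member was 0.21. In 180 members the absolute value was under 0.5, and in 2 of the 187 members, SLC4A9 and SLC6A17, it was over 1. Of the 12858 genes tested, 139 were over 1. In FPKM, the group means of 180 members differed by less than the larger of the 2 group SDs, and those of 7 members by more. The counts under 0.5 and by SD were not made over all genes, so they describe the members alone. By class, the median log2 fold change lay between -0.06 for the mitochondrial carriers (13 positive, 19 negative) and 0.07 for the carriers of carboxylates and organic ions (12 positive, 8 negative) among the 8 largest classes. It was 0.02 for metals (14 positive, 8 negative), 0.03 for inorganic ions (13 positive, 11 negative) and 0.04 for nucleotide sugars (15 positive, 7 negative). The class medians were not tested.

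**Figure D3:**
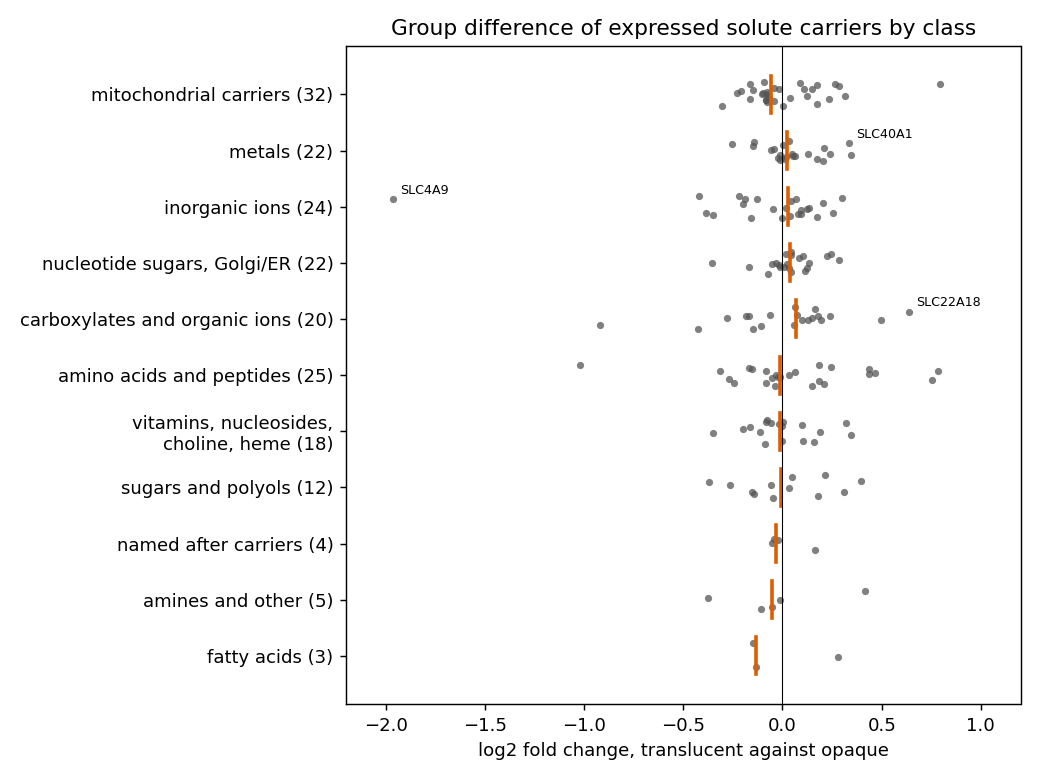
Log2 fold change, translucent against opaque, of each of the 187 members (points) by carrier class with the number of members, and the median of the class (orange bar). The 3 members with an unadjusted p under 0.05 are named, 180 of the 187 points lie within 0.5 of 0, and the medians of the 8 largest classes lie between -0.06 and 0.07.

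SLC22A18, a transporter-like protein of the organic cation family, was the member whose groups did not overlap. It was at 22.7, 21.3, 30.6, 21.6 and 18.6 CPM in Translucent-1 to Translucent-5 and at 15.1, 16.3, 13.5, 11.9 and 16.8 CPM in Opaque-1 to Opaque-5. Each translucent hen was above each opaque hen. The log2 fold change was 0.64 with a standard error of 0.17 and an unadjusted p of 0.00252, and the adjusted p was 1 by edgeR. The exact two-sided permutation test over all allocations of the hens to groups of 5 gave p = 0.0079, the smallest it can give. Any gene without overlap gets this value, so it restates the lack of overlap and adds no further support. DESeq2 gave an adjusted p of 0.324. In FPKM the gene was at 17.2 ± 3.56 in the translucent group and 11.1 ± 1.49 in the opaque group (mean ± SD, n = 5 each).

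SLC4A9, an anion exchanger known from kidney of mammals, was the lower member. It was at 0.923, 0.321, 2.97, 0.918 and 2.11 CPM in the translucent hens and at 9.06, 5.90, 4.01, 8.05 and 1.19 CPM in the opaque hens. The opaque hens 1 to 4 were above every translucent hen, and Opaque-5 lay inside the translucent range. The fitted log2 fold change was -1.96, with an unadjusted p of 0.00714 and an adjusted p of 1 by edgeR. The gene rests on few reads, 515 over all hens, and was the third lowest member by level. It passed the limit of 1 FPKM only through the opaque group, with 2.09 ± 1.21 FPKM there and 0.526 ± 0.402 FPKM in the translucent group (mean ± SD, n = 5 each). The choice of members therefore favoured a difference in SLC4A9, and its values are a description from which no support is drawn. With a mean of at least 1 FPKM required in each group, 185 of the 187 members were left. SLC4A9 was not among them, and it was not the only member removed.

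SLC40A1, the iron exporter, was at 634, 381, 568, 506 and 441 CPM in the translucent hens and at 407, 425, 324, 397 and 451 CPM in the opaque hens. The groups overlapped, with Translucent-2 below 4 of the opaque hens. The log2 fold change was 0.34 with a standard error of 0.15, the unadjusted p was 0.0484 and the adjusted p 1 by edgeR. The exact permutation test gave p = 0.087. Without Translucent-1, its highest hen, the log2 fold change was 0.24 and the unadjusted p 0.127. Red blood cell markers, of which HBBA, HBA1 and HBAD carried the level, summed to 83.1 to 312 FPKM in the translucent group and 87.8 to 193 FPKM in the opaque group, and leukocyte markers, mostly CD74, to 205 to 487 FPKM and 111 to 343 FPKM. Their part in the SLC40A1 values was not tested.

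**Figure D4:**
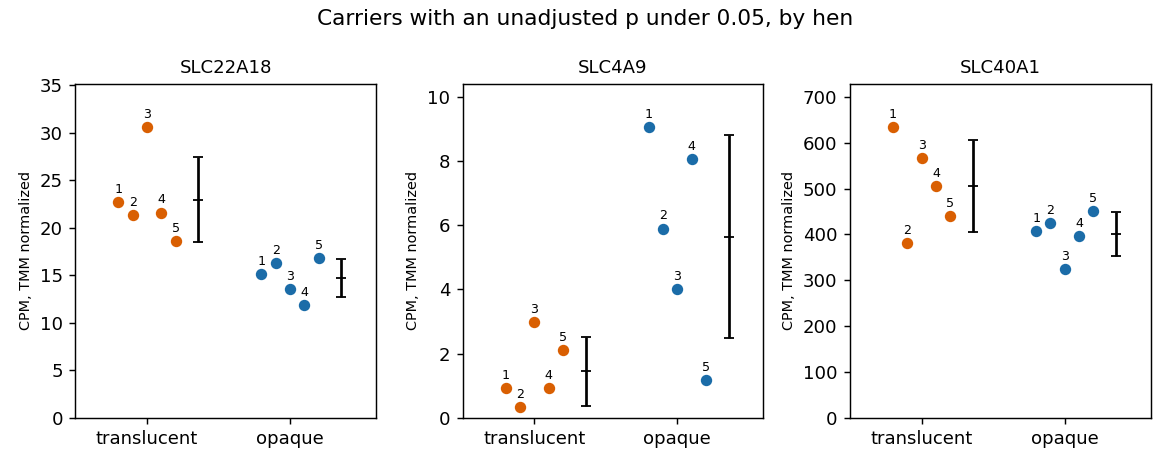
CPM (TMM normalized, y axes from 0) of SLC22A18, SLC4A9 and SLC40A1 in each translucent (orange) and opaque (blue) hen, numbered by replicate, with mean and SD of the group (n = 5). SLC22A18 is at 18.6 to 30.6 CPM in the translucent and 11.9 to 16.8 CPM in the opaque group, while the groups overlap for SLC4A9 (Opaque-5 lies among the translucent hens) and for SLC40A1.

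Without Translucent-1 and Opaque-5, 8 members had an unadjusted p under 0.05, 6 higher and 2 lower, which is 4.28% of the members against 3.98% of all genes tested. SLC22A18, at a log2 fold change of 0.70, and SLC4A9, at -2.10, were among them, and 0 members were called. Among the others were SLC12A4, a potassium-chloride cotransporter, at 0.28, SLC38A11 at 0.82, SLC1A4, a neutral amino acid exchanger, at 0.67, SLC26A5, known as the motor protein prestin of mammalian hearing, at 0.33 and SLC30A7, a zinc transporter of the Golgi, at 0.41. With DESeq2 on all hens, 5 members passed the unadjusted threshold (2.67%, against 2.56% of all genes), the 3 above together with SLC6A11, a carrier of GABA, at 0.79 and SLC38A11, a member of the SLC38 amino acid family, at 0.76. SLC38A11 was at 6.52, 11.7, 11.9, 19.2 and 23.7 CPM in the translucent group and at 9.54, 7.64, 13.9, 6.48 and 5.64 CPM in the opaque group, and it had an unadjusted p of 0.0541 by edgeR. Its highest hens, Translucent-4 and Translucent-5, were beyond the opaque range, while Translucent-1, Translucent-2 and Translucent-3 lay within it.

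The spread between hens was larger than the difference between groups for most carriers. The median CV of the members was 22%, against 24.1% for all genes tested. It was over 30% in 62 members and over 50% in 19, of which 14 were under 5 FPKM, and under 10% in 8. Opaque-5 was the highest hen for 36 members (19.3%, against 22.5% of all genes) and the lowest for 50 (26.7%, against 24.1%). Translucent-1 was highest for 20 members (10.7%, against 13.8%) and lowest for 32 (17.1%, against 12.9%), and Translucent-5 was highest for 38 (20.3%, against 13.9% of all genes). The number of members more than 2-fold away from their median over the hens was 36 in Opaque-5, 29 in Translucent-1 and 3 to 11 in the others. The counts by CV limit and by 2-fold distance were not made over all genes, so they are not read as traits of carriers.

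The 5 members with the largest CV were SLC6A17, SLC4A9, SLC26A7, SLC16A6 and SLC22A3. SLC6A17, a vesicular carrier of neutral amino acids known from neurons of mammals, had a CV of 111%. It was at 13.3, 2.82, 7.16, 1.89 and 12.8 CPM in the translucent hens and at 0.906, 5.82, 2.89, 28 and 40 CPM in the opaque hens, so that the opaque group held both the lowest value and the 2 highest. SLC26A7, an anion exchanger, had a CV of 83.2%, with 1.97, 3.6, 0.968, 4.97 and 11 CPM in the translucent hens and 7.62, 6.23, 0, 0.613 and 4.95 CPM in the opaque hens. It was the member without a read in 1 hen, Opaque-3, where 3 reads would be 0.240 CPM.

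SLC16A6, a monocarboxylate carrier that exports ketone bodies from the liver of zebrafish, had a CV of 81.3%. It was at 1.11, 10.4, 28.5, 4.75 and 10.9 CPM in the translucent hens and at 6.82, 24.8, 10, 20.7 and 0.890 CPM in the opaque hens. The lowest values were again those of Translucent-1 and Opaque-5. SLC22A3, a polyspecific carrier of organic cations, had a CV of 72.1% and the reverse order: it was at 23.3, 9.05, 4.58, 7.02 and 7.23 CPM in the translucent hens and at 7.73, 4.74, 5.29, 5.95 and 22.2 CPM in the opaque hens. Apart from these hens, SLC22A3 stayed between 4.58 and 9.05 CPM in both groups. Among members added after their values were seen, SLC24A5, a potassium-dependent sodium/calcium exchanger of intracellular membranes, was at 47.7 CPM in Translucent-1, 55.2 CPM in Opaque-5 and 37.5 CPM in Opaque-4, against 4.57 to 26.1 CPM in the others. SLC27A4, a fatty acid transport protein, was lowest in Translucent-1 at 9.84 CPM and in Opaque-5 at 11.7 CPM and ran from 17.7 to 39.7 CPM elsewhere.

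**Figure D5:**
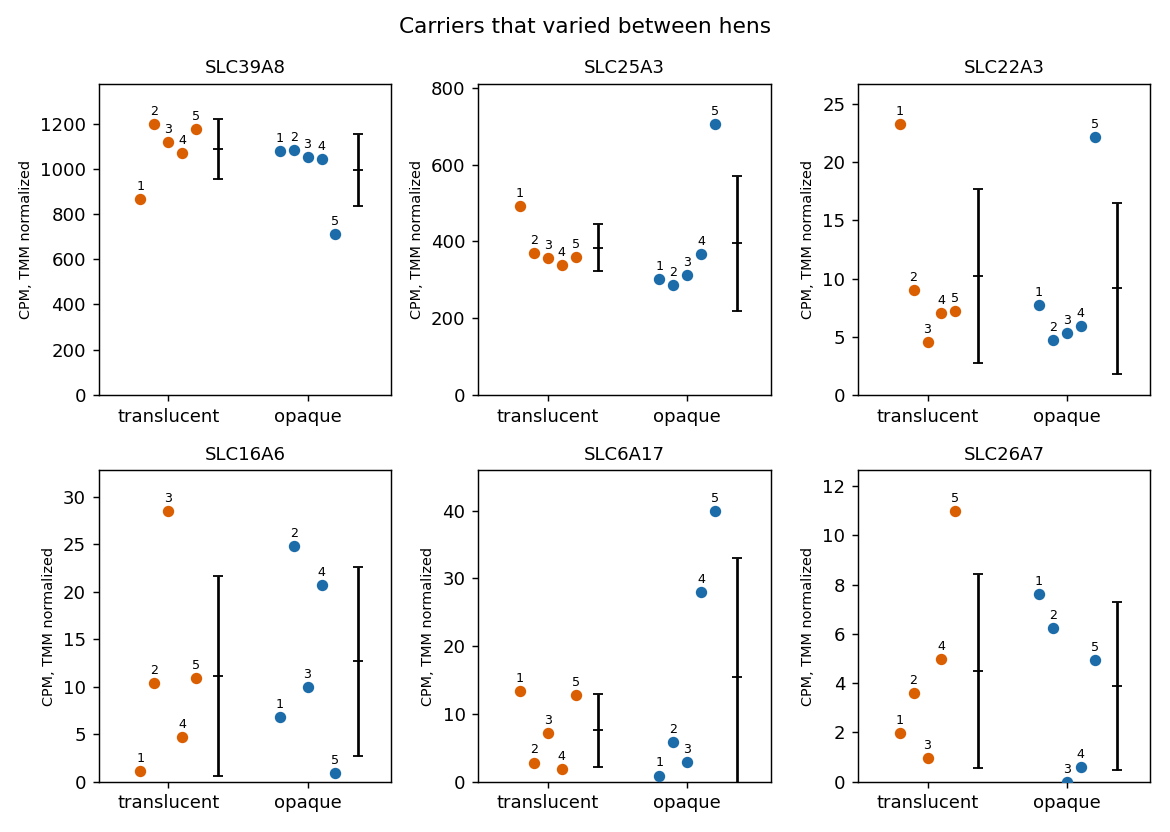
CPM (TMM normalized, y axes from 0) of 6 carriers that varied between hens, for each translucent (orange) and opaque (blue) hen, numbered by replicate, with mean and SD of the group (n = 5; a lower bar that would pass under 0 is not drawn beyond the axis). Translucent-1 and Opaque-5 are the lowest hens for SLC39A8 (867 and 710 CPM) and the highest for SLC25A3 (492 and 705 CPM) and SLC22A3 (23.3 and 22.2 CPM).

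Carriers and partner proteins that have no numbered SLC symbol were looked up from a separate list of 34 symbols. Of these, 30 were in the table and 26 were tested. At an unadjusted p under 0.05, 0 were higher and 0 lower, where 2.19% of all genes tested passed. Their median log2 fold change was -0.14, against -0.01 for all genes tested, and this median was not tested. BSG, the chaperone that brings monocarboxylate carriers to the plasma membrane, was at 131 FPKM, MPC2, a subunit of the mitochondrial pyruvate carrier, at 114 FPKM, SFXN1, a mitochondrial serine carrier, at 87.5 FPKM and ANKH, a transporter of pyrophosphate, at 70.8 FPKM. BSG ran from 185 to 247 CPM in the translucent group and from 208 to 256 CPM in the opaque group, so the groups overlapped. A further 36 rows are described in the table as solute carriers without bearing a numbered symbol, and 21 of them had a mean of 1 FPKM or more. The highest, ENSGALG00000032749, described as a member of family 14, the urea transporters, was at 381 FPKM, between the members SLC25A6 and SLC12A2, with a log2 fold change of -0.23. This row is in no class, so the class shares leave it out. The class of urea, vesicular amines and other substrates summed to 51.9 FPKM without it.

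The lists of other cell types moved little between the groups. Of the glia list, 1 of 5 genes, MBP, passed the low-count filter and was higher in the translucent group (log2 fold change 2.75, unadjusted p 0.00351), and the list summed to 1.93 to 29.4 FPKM in the translucent and 0.650 to 6.29 FPKM in the opaque group. Of the ciliated cell list, 1 of 3 tested genes, FOXJ1, was lower (log2 fold change -0.33, unadjusted p 0.0496), with sums of 216 to 297 FPKM and 259 to 323 FPKM. In the lists of red blood cells, smooth muscle, leukocytes, endothelium, epithelium, isthmus secretion and fibroblasts, 0 genes passed an unadjusted p of 0.05. Endothelial markers summed to 49.7 to 102 FPKM in the translucent and 47.5 to 101 FPKM in the opaque group. The part of glial or ciliated cells in the 3 members that passed the unadjusted threshold was not tested.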

How the data were processed

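Messenger RNA from the white isthmus of 10 hens was sequenced, 1 library per hen. In the authors' pipeline, fastp cleaned the reads, Bowtie2 took out rRNA, HISAT2 aligned the rest, and StringTie and RSEM gave transcripts and gene values. The genome build is not given in the sources used here. Expected counts were deposited without normalization, as RSEM estimated them, beside FPKM, which the authors corrected for depth and gene length. All columns of samples were used (0 left aside).

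Expected counts, 6.73% of them fractional, were rounded; 12 members held fractional counts, where reads shared with similar genes make the split uncertain. Counting strand is not stated, so overlapping antisense genes cannot be told apart. Levels of different genes were compared in FPKM, hens in CPM scaled by TMM. Groups were compared with edgeR 4.0.16 (filterByExpr, quasi-likelihood test, Benjamini-Hochberg adjustment over 12858 genes) in R 4.3.3, and single members by the exact permutation test of log2 CPM (prior count 2). DESeq2 1.42.0, which the authors used, and limma 3.58.1 were alternatives. The floor of 3 counts covers counting error only. The steps were tested on simulated data. Figures were drawn with matplotlib 3.10.9.

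The members, classes, marker lists and partner list were chosen with earlier results of these data known, and carriers were assigned to classes by family. Named members are the 10 highest by FPKM, the 3 highest of each class of 5 or more, those with an unadjusted p under 0.05 or without overlap, the 5 largest CVs and the 3 on each side of the limit. Not every gene this rule names is reported here. Other members were named after their values were seen. Replicate numbers 1 to 5 belong to different hens: the correlation of same-numbered hens' deviations averaged -0.13, against 0.04 for different numbers, so they were not paired.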

Additional observations from a re-analysis of the deposited data

Results flagged for a closer look

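Of 66 sets of 5 hens (33 named members in each group), 6 held a hen whose gap to the nearest other hen was more than 0.71 of the range of its group, where chance gives about 1 in 20, or 3.3 of 66. All 6 were values of Translucent-1 or Opaque-5, and hens share their library between genes, so the flags are not independent. The 33 members include 5 chosen for a large spread over the hens, among them SLC22A3 with 2 of the 6, so the rate given by chance does not apply to them. SLC39A8 was at 710 CPM in Opaque-5, with the nearest opaque hen at 1044 CPM. SLC25A3 was at 492 CPM in Translucent-1 (nearest translucent hen 371 CPM) and at 705 CPM in Opaque-5 (nearest opaque hen 368 CPM). SLC25A5 was at 249 CPM in Opaque-5, with the nearest opaque hen at 175 CPM. SLC22A3 was at 23.3 CPM in Translucent-1 (nearest 9.05 CPM) and at 22.2 CPM in Opaque-5 (nearest 7.73 CPM).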

How the results depend on the processing

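The count of members called at the adjusted threshold was 0 under each alternative run, and the median log2 fold change of the members stayed between -0.05 and 0.04. The count of members with an unadjusted p under 0.05 was 3 (2 higher, 1 lower). It was 5 (4 higher) with DESeq2 (2.67% of the members, 2.56% of all genes), 13 (8 higher, 5 lower) with replicates 1 to 3 only, where 7.67% of all genes passed and 6.95% of the members, and 8 (6 higher, 2 lower) without Translucent-1 and Opaque-5, an alternative that sets these hens aside in both groups. With at least 10 reads in every hen, 0 members were lower, since SLC4A9 was removed by that filter. Leaving out each hen in turn gave 2 to 6 members, of which 1 to 4 were higher and 1 to 3 lower, and the highest count, 6, came without Opaque-5. These were 1.07% to 3.21% of the members, against 1.81% to 3.91% of all genes. The other alternatives, which were size factors by the median of ratios, library size alone, no low-count filter and limma on log2(FPKM + 1) or log2(FPKM + 0.1), gave 3 or 4 members (1.6% or 2.14%, against 2.16% to 2.81% of all genes). With the replicate block, 4 members passed (2.14%, against 1.26% of all genes), 2 of them shared with the fit without it, and SLC40A1 had an unadjusted p of 0.120. SLC22A18 kept its direction and an unadjusted p under 0.05 in each alternative, and SLC40A1 lost it in 10. With a limit of 0.5, 2 or 5 FPKM in place of 1 there were 201, 168 or 141 members, and with 1 FPKM in each group 185. With 5 hens a group, the standard error of a single member had a median of 0.21 on the log2 scale, which limits what can be seen for one gene. Without the 4 genes that name no carrier, a choice made after seeing the data, 183 members were left.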
